A study of Mus musculus with 9 samples.

Results

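The 34 genes described here encode lysosomal hydrolases, their activators and carriers, lysosomal membrane proteins and 2 transcription factors of lysosomal genes. They were chosen by gene symbol, 34 of 33924 genes in the table, and all 34 were found (Tfeb and Tfe3 under the older symbols Tcfeb and Tcfe3). RNA was sequenced in 9 libraries of male mouse embryonic stem (ES) cells, pluripotent cells kept here on gelatin in medium with serum and LIF, a cytokine that holds them undifferentiated. The wild type group (3 libraries, titles JM8A) was compared with a UTX knockout (3 libraries, titles A6) and with libraries labelled MLL4 knockdown (3 libraries, titles JM8A with a further number). UTX, encoded by Kdm6a, removes methyl groups from histone H3 lysine 27, and MLL4, encoded by Kmt2d, adds them to lysine 4. All groups are labelled as untreated, and neither A6 nor that number is explained, so a difference of line or clone cannot be told apart from the perturbation. Because the RNA came from bulk cultures, a change in the share of one kind of cell and a change of RNA per cell cannot be told apart either.

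Lysosomes are acidic, membrane-bound compartments in which proteins, glycans and lipids delivered by endocytosis and autophagy are broken down. Most soluble hydrolases are made in the endoplasmic reticulum, tagged with mannose 6-phosphate in the Golgi and carried to the lysosome by receptors, while glycosylated membrane proteins such as Lamp1 and Lamp2 line its inner face. TFEB, TFE3 and MITF are basic helix-loop-helix factors that are held in the cytoplasm when mTORC1 is active and enter the nucleus on starvation or lysosomal stress. There they bind short palindromes with the core CACGTG, many of which lie close to the start sites of lysosomal genes.

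The libraries held 18570746 to 23874816 counts on genes. Of all genes, 14772 passed the filter on low counts and were tested, and all 34 lysosomal genes were among them, each with counts in every library. Kdm6a stood at 12.8, 16.9 and 19.4 CPM (counts scaled to library size with TMM factors) in the UTX knockout against 89.0, 57.1 and 90.7 in wild type (log2 fold change -2.27, SE 0.20). Kmt2d (Mll2 in the table) had 71.0, 72.0 and 73.4 CPM in the libraries labelled MLL4 knockdown. Wild type had 86.2, 43.5 and 119 CPM (log2 fold change -0.20, SE 0.27, edgeR adjusted p = 0.62). The transcript did not separate these libraries from wild type, where replicate 2 lay below them and replicates 1 and 3 above. All labelled MLL4 knockdown libraries lay below the UTX knockout (110, 96.9 and 130 CPM). That difference missed the threshold (-0.64, SE 0.27, edgeR adjusted p = 0.0987). All 10 ES cell markers on the list (such as Pou5f1 and Nanog) were present, with summed levels of 5178 to 6217 CPM in wild type, 6489 to 7078 in the UTX knockout and 6511 to 7178 in the labelled MLL4 knockdown. Single markers went both ways. In the UTX knockout 1 rose (Fgf4) and 1 fell (Zfp42, -0.49, SE 0.14). In the labelled MLL4 knockdown 4 rose (Nanog, Esrrb, Klf4 and Tdgf1) and 2 fell (Zfp42, -0.75, SE 0.14, and Dppa5a, -1.08, SE 0.22). Trophectoderm markers summed to 134 to 575 CPM in wild type, 84.9 to 133 in the UTX knockout and 68.5 to 75.2 in the labelled MLL4 knockdown, and endoderm markers to 99.8 to 257, 72.6 to 87.0 and 67.5 to 86.8 CPM. Fibroblast or feeder markers summed to 17.7 to 27.9, 12.5 to 15.8 and 7.59 to 9.74 CPM. The trophectoderm, endoderm and fibroblast or feeder sums were each higher in every wild type library than in any perturbed one. For trophectoderm the gap was narrow, 134 CPM against 133, and wild type replicate 1 stood apart. It had 19.7 CPM of Krt8 and 28.7 of Krt18, against 211 and 231 in replicate 2 and 170 and 184 in replicate 3. Tfap2c, at 65.5, 66.1 and 79.05 CPM in wild type, differed less. The endoderm sum was mostly Lrp2 (mean 164 CPM in wild type, 57.8 and 30.8 in the perturbed groups). Of 9 tested endoderm markers, UTX knockout cells had 2 that rose and 2 that fell (median log2 fold change 0.24). The labelled MLL4 knockdown had 4 that rose and 1, Lrp2, that fell (median 0.92). Of 9 tested trophectoderm markers, 6 and 7 fell and 0 rose. Beside these marker counts, 6.55% of all genes tested rose and 8.92% fell in the UTX knockout. In the labelled MLL4 knockdown 10.8% of all genes tested rose and 15.8% fell. The part of these markers in the lysosomal differences was not tested.

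In wild type cells the 34 genes differed widely in level per length of exon. Lamp1, the most abundant lysosomal membrane glycoprotein in many cells, had the highest level at 262 CPM per kilobase of exon. Ctsd, an aspartic protease, followed at 174, and Psap, the precursor of the saposins that present lipids to hydrolases, at 124 CPM per kilobase. Arsb, a sulfatase of dermatan sulfate, and Ctsh, a cathepsin with aminopeptidase activity, were the lowest at 0.27 and 0.55 CPM per kilobase. Cd68, a heavily glycosylated membrane protein known from macrophages, was in the lower part of the order in wild type at 18.4 CPM per kilobase and reached 73.2 in the UTX knockout, close to Grn at 73.1 there. Tfe3, at 36.4 CPM per kilobase in wild type, was more abundant than Tfeb at 5.62.

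The promoters are shown because TFEB and TFE3, which bind the core CACGTG, are among the 34 genes. RefSeq promoter windows of 300 bases (250 before and 50 after the start, GRCm38.p6) were at hand for 29 of the 34 genes. The core CACGTG, the same on both strands, lay in the windows of 9 of these 29 genes (31.0%) against 11.7% of 11019 tested genes with a window. They were Arsa, Ctsa, Ctsd, Ctsl, Gaa, Gla, Glb1, Lamp1 and Mcoln1. The longer palindrome TCACGTGA, which contains the core, lay in the windows of Ctsa, Ctsd, Gla and Mcoln1 (13.8% against 2.06% of tested genes). The full consensus known as the CLEAR element, a palindrome that contains both, was found in 0 of the 29 windows against 0.726% of tested genes. Such a match describes the letters of a window only, and no binding was measured.
Windows with the longer palindrome (in capitals, pieces of 30 bases, 5′ to 3′ on the gene's strand) are the following, and the pieces of Ctsa overlap each other. Both pieces of Gla overlap an annotated exon of another gene, Hnrnph2. The pieces of Ctsd, Mcoln1 and Ctsa overlap annotated exons of their own genes.
Ctsd, chr7:142387908-142387937, minus strand: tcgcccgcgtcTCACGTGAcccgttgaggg
Gla, chrX:134601215-134601244, minus strand: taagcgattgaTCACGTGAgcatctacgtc
Gla, chrX:134601182-134601211, minus strand: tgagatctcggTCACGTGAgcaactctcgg
Mcoln1, chr8:3500462-3500491, plus strand: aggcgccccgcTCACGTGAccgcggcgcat
Ctsa, chr2:164833749-164833778, plus strand: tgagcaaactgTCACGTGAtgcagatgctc
Ctsa, chr2:164833766-164833795, plus strand: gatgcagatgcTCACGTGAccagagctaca
Lamp1 carried the core 4 times within the 150 bases before its start (core in capitals), more than any other window of the 34 genes. Cd68, whose transcript differed most in the UTX knockout, had none in its window, and its 150 bases before the start are set beside those of Lamp1.
Lamp1, chr8:13159011-13159160, plus strand: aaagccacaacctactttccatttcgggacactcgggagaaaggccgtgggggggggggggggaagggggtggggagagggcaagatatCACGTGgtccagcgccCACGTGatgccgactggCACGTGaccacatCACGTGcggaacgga
Cd68, chr11:69666171-69666320, minus strand: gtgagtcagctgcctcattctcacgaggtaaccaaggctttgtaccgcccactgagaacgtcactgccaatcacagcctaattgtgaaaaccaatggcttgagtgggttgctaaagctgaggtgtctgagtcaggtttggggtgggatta
Of the genes with the core, Ctsd and Gla rose in the UTX knockout, and Arsa and Mcoln1 fell in the labelled MLL4 knockdown. Ctsd and Arsa were also lower in the labelled MLL4 knockdown than in the UTX knockout. Ctsa, Ctsl, Gaa, Glb1 and Lamp1 passed the test in no comparison. A link between the motif and these changes was not tested.

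In the UTX knockout against wild type, 6 lysosomal genes rose and 1 fell. Cd68 rose most, and the proteases Ctsb and Ctsd, the sorting receptor Scarb2, the galactosidase Gla and the lipase Lipa rose between 1.44-fold and 1.77-fold, while the mannosidase Manba fell. The rises made up 17.6% of the 34 genes, beside 6.55% of all genes tested, and the single fall 2.94%, beside 8.92%. The log2 fold change was above 0 for 25 of the 34 (73.5%, beside 49.2% of all genes), and its median was 0.27, beside -0.01 over all genes. The groups did not overlap for 12 genes (35.3%), beside 31.5% of all genes tested. These tests used edgeR's quasi-likelihood test over all genes with a threshold of 0.05 on the Benjamini-Hochberg adjusted p. With the replicate number as a block, which pairs the libraries, 11 rose (Gaa, Neu1, Arsa, Smpd1 and Grn joined the 6) and 1 fell. The number that rose was 13 without UTX knockout replicate 1, 1 without replicate 2, 2 without replicate 3 and 3 without wild type replicate 3. The fall was lost without either of the last 2 UTX knockout libraries and without wild type replicate 2 or 3. With only these 2 groups in the fit, Cd68, Ctsb and Scarb2 rose and 0 fell.

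In the libraries labelled MLL4 knockdown against the same wild type libraries, 4 lysosomal genes rose and 7 fell. Tfeb, Lipa, Scarb2 and the palmitoyl thioesterase Ppt1 rose. The tetraspanin Cd63, the mannosidases Manba and Man2b1, the sulfatases Galns and Arsa, the channel Mcoln1 and the cholesterol carrier Npc2 fell. The rises made up 11.8% of the 34 genes, beside 10.8% of all genes tested, and the falls 20.6%, beside 15.8%, so both shares were near those of all genes. The median log2 fold change was -0.05, beside -0.02 over all genes, and 14 of the 34 genes did not overlap between groups (41.2%, beside 42.9%). The number that rose was 2 without labelled MLL4 knockdown replicate 2 or without replicate 3. The number that fell was 4 without wild type replicate 2, and 3, 3 and 4 without labelled MLL4 knockdown replicates 1, 2 and 3.

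Set directly against the UTX knockout, the labelled MLL4 knockdown had lower levels of 11 lysosomal genes and a higher level of 1. Cd68, Arsa, Ctsb, Cd63, Npc1, Psap, Ctsd, Neu1, Smpd1, Lamp2 and Grn fell, and Gusb rose. The falls made up 32.4% of the 34 genes, beside 16.0% of all genes tested, and the rise 2.94%, beside 13.0%. The log2 fold change was below 0 for 27 of the 34, with a median of -0.32, beside -0.02 over all genes, and the groups did not overlap for 20 genes (58.8%, beside 52.6%). With the replicate block Tfeb also rose, which makes 2 rises. The number that fell was 19 without UTX knockout replicate 1, and it was 5 or 6 when any other perturbed library was left out. The falls of Neu1, Smpd1, Grn, Lamp2 and Cd63 were lost on leaving out any of these other libraries. That of Npc1 was lost without UTX knockout replicate 2 or 3 or labelled MLL4 knockdown replicate 1 or 3. The number that rose was 0 without UTX knockout replicate 1 or 2 and without any of the labelled MLL4 knockdown libraries, and without UTX knockout replicate 3 Tfeb was called in place of Gusb.

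**Figure D1:**
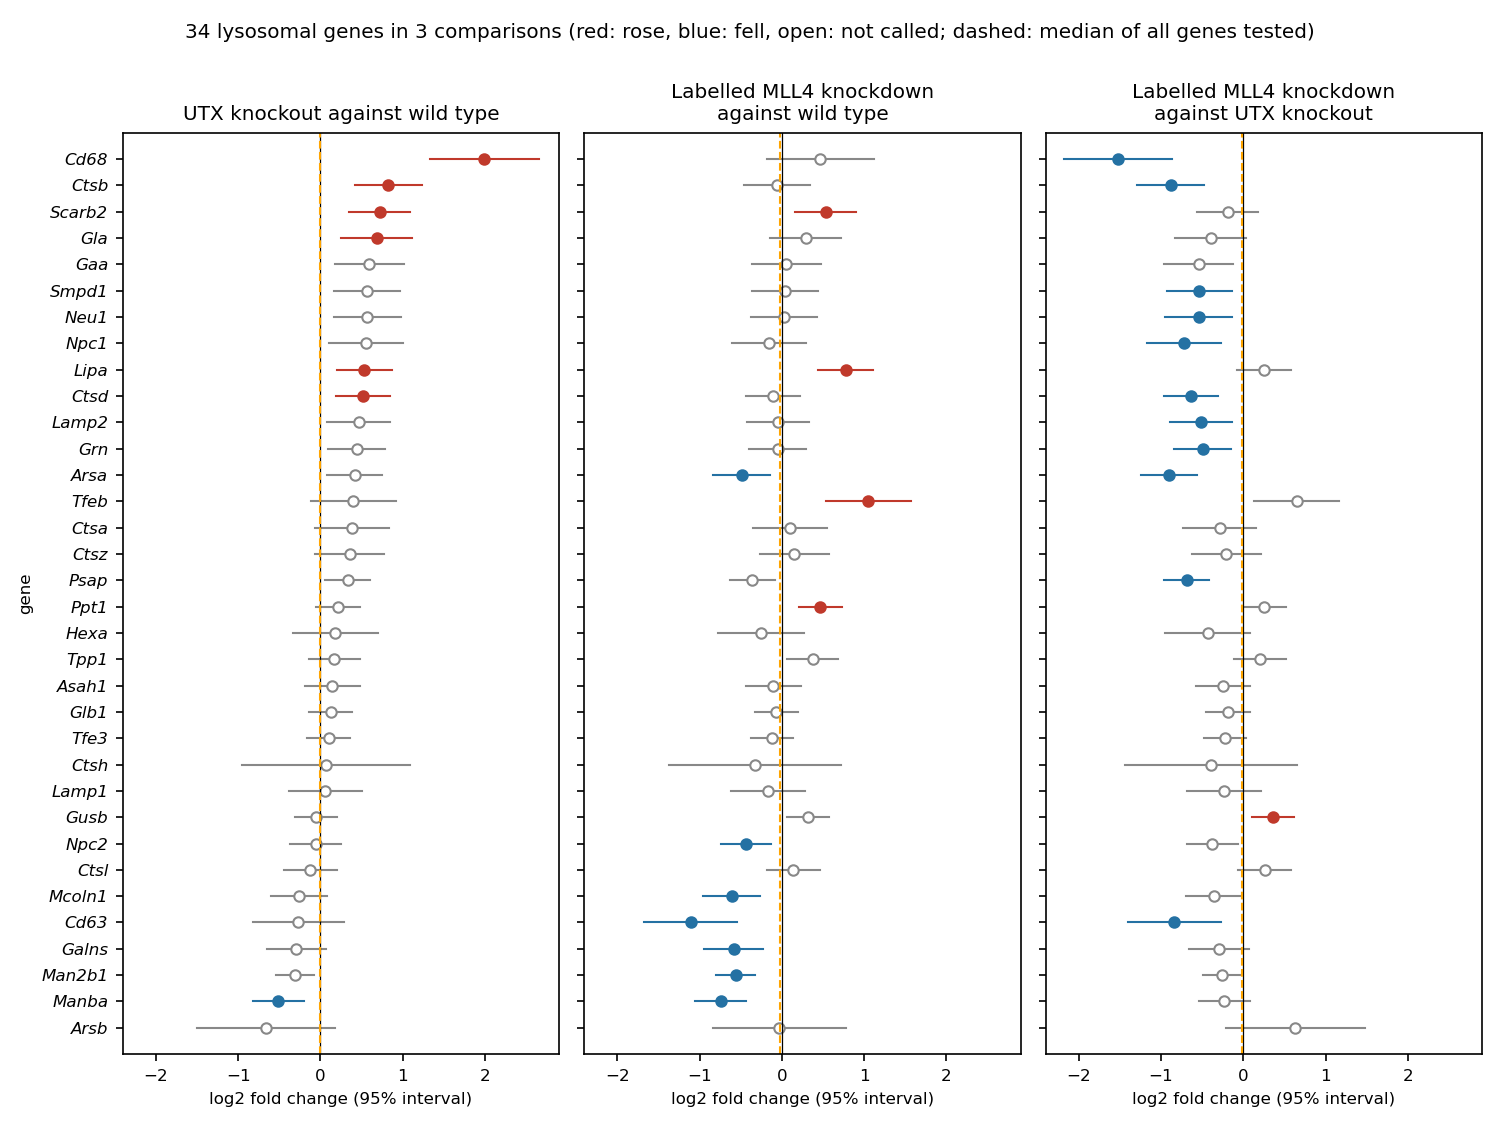
Log2 fold change with its 95% interval for each of the 34 lysosomal genes in 3 comparisons, ordered by the UTX knockout. Filled points passed edgeR's test (6 rose and 1 fell, 4 rose and 7 fell, 1 rose and 11 fell, from left to right), and in the left panel 25 of 34 points lie above 0.

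The cathepsins and Tpp1 are the 7 proteases among the 34 genes, which cut proteins and peptides inside the lysosome. Of these 7, 2 rose in the UTX knockout, 0 changed in the labelled MLL4 knockdown, and 2 fell in the direct comparison. Ctsb, a cysteine protease, stood at 136, 176 and 147 CPM in wild type, 190, 326 and 297 in UTX knockout libraries, with 129, 155 and 156 in the labelled MLL4 knockdown. All UTX knockout libraries were above all others, and the other groups overlapped. Its log2 fold change in the UTX knockout was 0.82 (SE 0.19, adjusted p = 0.0138), and in the direct comparison -0.88 (SE 0.19, adjusted p = 0.0052). Of the exon bases of Ctsb, 16.3% are shared with Fdft1 on the opposite strand, a gene of cholesterol synthesis that itself rose in the UTX knockout (0.68, SE 0.12) and fell in the direct comparison (-0.51, SE 0.12). The strand setting of the counting is not given, and the part of shared reads was not tested. Ctsd, the main aspartic protease of lysosomes, stood at 375, 405 and 333 CPM in wild type, 412, 617 and 568 in UTX knockout libraries, with 311, 365 and 355 in the labelled MLL4 knockdown. The lowest UTX knockout library lay just above the highest wild type library. Of the exon bases of Ctsd, 31.5% are shared with Gm49369 on the same strand, and the part of such reads was not tested. The log2 fold changes were 0.52 (SE 0.15, adjusted p = 0.0382) against wild type and -0.63 (SE 0.15, adjusted p = 0.0098) in the direct comparison. The call of Ctsb in the UTX knockout was lost without UTX knockout replicate 2, and that of Ctsd without replicate 2 or 3 or without wild type replicate 3.

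Among the other proteases, Tpp1, a tripeptidyl peptidase, stood at 78.2, 76.9 and 85.1 CPM in wild type and 93.1, 110 and 108 in the labelled MLL4 knockdown. These groups did not overlap, but the difference missed the threshold (0.37, SE 0.14, adjusted p = 0.0749; 0.0337 with the replicate block). Ctsa, the carboxypeptidase that also protects the galactosidase Glb1 and the sialidase Neu1, had 105, 189 and 190 CPM in the UTX knockout against 111, 134 and 126 in wild type, so the groups overlapped through replicate 1. Ctsz, Ctsl and Ctsh had log2 fold changes of 0.36, -0.12 and 0.06 in UTX knockout cells, with 0.15, 0.14 and -0.33 in the labelled MLL4 knockdown, with adjusted p from 0.23 to 0.95.

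The 8 glycosidases remove sugars from glycoproteins, glycolipids and glycogen, and they did not move in one direction. Gla, the alpha-galactosidase that degrades globotriaosylceramide, stood at 26.3, 28.5 and 21.3 CPM in wild type, 28.5, 51.1 and 42.5 in UTX knockout libraries, with 27.5, 33.8 and 31.5 in the labelled MLL4 knockdown. The lowest UTX knockout library was level with the highest wild type library to the digits shown. Gla rose in the UTX knockout (0.68, SE 0.20, adjusted p = 0.039), a call that ended without replicate 2 or 3 of the UTX knockout or replicate 3 of wild type. Manba, the beta-mannosidase, stood at 234, 338 and 283 CPM in wild type, 224, 197 and 179 in UTX knockout libraries, with 159, 180 and 172 in the labelled MLL4 knockdown. All wild type libraries lay above all perturbed ones. Manba fell in both comparisons with wild type, with log2 fold changes of -0.51 (SE 0.14, adjusted p = 0.0329) in the UTX knockout and -0.74 (SE 0.14, adjusted p = 0.0033) in the labelled MLL4 knockdown. The second call held under all 17 alternatives run, and the first was lost as given above. Man2b1, the alpha-mannosidase, stood at 109, 92.8 and 87.9 CPM in wild type, 77.7, 77.8 and 78.3 in UTX knockout libraries, with 62.4, 67.8 and 65.8 in the labelled MLL4 knockdown. The 3 groups did not overlap. Its log2 fold change was -0.31 (SE 0.11, adjusted p = 0.0727) in the UTX knockout, which missed the threshold, and it fell by 0.56 (SE 0.11, adjusted p = 0.0033) in the labelled MLL4 knockdown.

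Gaa, which degrades glycogen, stood at 84.2, 102 and 117 CPM in wild type, 120, 143 and 194 in UTX knockout libraries, with 84.4, 114 and 116 in the labelled MLL4 knockdown. The UTX knockout lay above wild type in all libraries, yet the difference missed the threshold (0.59, SE 0.19, adjusted p = 0.057; 0.0035 with the replicate block). In the direct comparison the value was -0.54 (SE 0.19, adjusted p = 0.0536; 0.0032 with the block). Neu1, a sialidase, stood at 40.8, 50.3 and 41.8 CPM in wild type, 48.5, 73.5 and 75.2 in UTX knockout libraries, with 36.5, 46.9 and 52.0 in the labelled MLL4 knockdown. It fell in the direct comparison (-0.54, SE 0.19, adjusted p = 0.0467), although replicate 3 of the labelled MLL4 knockdown was above replicate 1 of the UTX knockout. Its UTX knockout value was 0.57 (SE 0.19, adjusted p = 0.058; 0.0114 with the block). Gusb, the beta-glucuronidase, stood at 36.9, 35.4 and 29.4 CPM in wild type, 31.9, 33.5 and 32.9 in UTX knockout libraries, with 42.3, 40.7 and 43.7 in the labelled MLL4 knockdown. All labelled MLL4 knockdown libraries were above all others, and Gusb rose against the UTX knockout (0.36, SE 0.12, adjusted p = 0.0358; lost with no filter on low counts) but not past the threshold against wild type (0.32, SE 0.12, adjusted p = 0.0648). Hexa and Glb1, which act on gangliosides, had log2 fold changes of 0.18 and 0.12 in UTX knockout cells, with -0.25 and -0.07 in the labelled MLL4 knockdown, and their groups overlapped. Hexa had -0.43 in the direct comparison (SE 0.24, adjusted p = 0.192; 0.0329 with the replicate block).

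Of the 3 sulfatases, 0 changed in the UTX knockout and 2 fell in the labelled MLL4 knockdown. Arsa, which removes sulfate from the myelin lipid sulfatide, stood at 20.7, 26.0 and 23.0 CPM in wild type, 26.3, 30.7 and 36.1 in UTX knockout libraries, with 14.3, 17.0 and 18.3 in the labelled MLL4 knockdown. The 3 groups did not overlap, with the UTX knockout highest and the labelled MLL4 knockdown lowest. The log2 fold change was 0.42 in the UTX knockout (SE 0.15, adjusted p = 0.0902; 0.031 with the replicate block) and -0.49 in the labelled MLL4 knockdown (SE 0.16, adjusted p = 0.0384). In the direct comparison it was -0.91 (SE 0.16, adjusted p = 0.00187), and this call held under all 17 alternatives. The call against wild type was lost with no filter on low counts and on leaving out wild type replicate 2 or 3 or any of the labelled MLL4 knockdown libraries. Arsa shares 19.8% of its exon bases with C230037L18Rik on the opposite strand, which had a log2 fold change of -1.65 (SE 0.57) in the labelled MLL4 knockdown and 0.01 (SE 0.48) in the UTX knockout. Galns, which acts on keratan sulfate, stood at 10.8, 14.8 and 13.7 CPM in wild type, 11.4, 11.3 and 9.47 in UTX knockout libraries, with 7.91, 8.91 and 9.39 in the labelled MLL4 knockdown. It fell in the labelled MLL4 knockdown (-0.59, SE 0.16, adjusted p = 0.022). That call was lost without wild type replicate 2 or 3 and without any of the labelled MLL4 knockdown libraries. Arsb lay at or below 1.71 CPM in every library and passed the test in no comparison.

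A set of 8 genes handles lipids, either as hydrolases (Lipa, Ppt1, Smpd1, Asah1), as activators or regulators of them (Psap, Grn) or as carriers of cholesterol out of the lysosome (Npc1, Npc2). Lipa, the acid lipase that frees cholesterol from its esters, stood at 17.2, 11.3 and 13.3 CPM in wild type, 20.9, 20.0 and 19.5 in UTX knockout libraries, with 24.2, 24.0 and 23.5 in the labelled MLL4 knockdown. The 3 groups did not overlap, and the spread within each perturbed group was under 1 CPM (SD 0.71 and 0.34, n = 3). Lipa rose in both comparisons with wild type, by 0.53 (SE 0.15, adjusted p = 0.0375) in the UTX knockout and 0.78 (SE 0.15, adjusted p = 0.0038) in the labelled MLL4 knockdown. The first call was lost when any UTX knockout library, or wild type replicate 2 or 3, was left out. Ppt1, which removes palmitate from proteins, stood at 27.3, 23.4 and 24.7 CPM in wild type, 27.4, 32.2 and 28.0 in UTX knockout libraries, with 32.4, 34.9 and 37.0 in the labelled MLL4 knockdown. It rose in the labelled MLL4 knockdown (0.47, SE 0.12, adjusted p = 0.0155), a call lost without its replicate 2 or 3, and had a log2 fold change of 0.22 in the UTX knockout (adjusted p = 0.25), where the groups did not overlap.

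Psap stood at 320, 353 and 350 CPM in wild type, 349, 464 and 475 in UTX knockout libraries, with 255, 279 and 264 in the labelled MLL4 knockdown. The labelled MLL4 knockdown lay below both other groups in all libraries. Psap fell in the direct comparison (-0.69, SE 0.13, adjusted p = 0.0025) under all 17 alternatives, while its differences from wild type, 0.33 and -0.36, missed the threshold (adjusted p = 0.0962 and 0.0553; 0.0501 and 0.0245 with the replicate block). Smpd1, the acid sphingomyelinase, stood at 13.5, 16.8 and 12.9 CPM in wild type, 17.5, 23.2 and 23.4 in UTX knockout libraries, with 11.6, 16.5 and 16.2 in the labelled MLL4 knockdown. It was above wild type in all UTX knockout libraries (0.57, SE 0.18, adjusted p = 0.0549; 0.0142 with the block) and fell in the direct comparison (-0.53, SE 0.18, adjusted p = 0.0467). Grn, which encodes progranulin, stood at 114, 143 and 120 CPM in wild type, 133, 189 and 191 in UTX knockout libraries, with 105, 129 and 130 in the labelled MLL4 knockdown. The UTX knockout overlapped with wild type through its replicate 1 and not with the labelled MLL4 knockdown, against which Grn differed by -0.49 (SE 0.16, adjusted p = 0.0364). Its UTX knockout value was 0.44 (SE 0.16, adjusted p = 0.0781; 0.0172 with the block).

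The cholesterol carriers differed in pattern. Npc1, a membrane protein, stood at 106, 73.4 and 104 CPM in wild type, 99.1, 163 and 156 in UTX knockout libraries, with 68.8, 93.2 and 91.6 in the labelled MLL4 knockdown. It fell in the direct comparison (-0.72, SE 0.21, adjusted p = 0.023) and missed the threshold in the UTX knockout (0.56, SE 0.20, adjusted p = 0.0867). Npc2, its soluble partner, stood at 152, 180 and 124 CPM in wild type, 127, 162 and 150 in UTX knockout libraries, with 110, 116 and 111 in the labelled MLL4 knockdown. All labelled MLL4 knockdown libraries were below all others, and Npc2 fell against wild type (-0.44, SE 0.14, adjusted p = 0.0411), a call lost without wild type replicate 1 or 2, without any of the labelled MLL4 knockdown libraries, or with only the groups compared in the fit. Against the UTX knockout it had -0.38 (SE 0.14, adjusted p = 0.0646; 0.0331 with the replicate block). Asah1, the acid ceramidase, had log2 fold changes of 0.15 and -0.10 in the comparisons with wild type, with overlapping groups.

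The 6 membrane proteins held both the strongest rise and the strongest fall among the 34 genes in comparisons with wild type. Cd68 stood at 16.0, 28.3 and 25.1 CPM in wild type, 54.6, 102 and 119 in UTX knockout libraries, with 23.4, 32.5 and 40.2 in the labelled MLL4 knockdown. The lowest UTX knockout library was above every other library, while wild type and the labelled MLL4 knockdown overlapped. The mean was 23.1 ± 6.37 CPM for wild type and 92.0 ± 33.5 for the UTX knockout (SD, n = 3), and Cd68 rose 3.97-fold (log2 1.99, SE 0.30, adjusted p = 0.0025). In the direct comparison it fell by 1.52 on the log2 scale (SE 0.30, adjusted p = 0.0036), and the difference of the labelled MLL4 knockdown from wild type was 0.47 (SE 0.30) and passed with the replicate block (adjusted p = 0.268 without and 0.0178 with it). Over 17 alternatives the UTX knockout value lay between 1.78 and 2.26, and the call was lost in the 2 libraries per group of lane 2 alone (2.08, adjusted p = 0.0777), with a log2 ratio of 1.85 in lane 1.

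Since Cd68 is known as a macrophage marker, the other markers of that cell type were read beside it. The 12 macrophage markers on the list summed to 3.06 to 3.28 CPM in wild type, 1.16 to 1.57 in the UTX knockout and 1.90 to 2.58 in the labelled MLL4 knockdown. In these groups 12, 12 and 11 of the markers had a mean under 1 CPM, so the sums lie near the floor. The part of such cells in the Cd68 difference was not tested. Cx3cr1, Tyrobp and Lyz2 were at 0 in all 9 libraries, and Adgre1 (listed as Emr1) and Aif1 were at 0 in all perturbed libraries. Only 3 of the 12 markers passed the filter on low counts. Of these, Itgam fell in the UTX knockout (-2.19, SE 0.65) and in the labelled MLL4 knockdown (-4.15, SE 0.84). Cd14 and Mrc1 passed the test in neither comparison with wild type, and Mrc1 rose in the direct comparison (1.45, SE 0.48). The genes beside Cd68 on chromosome 11 were also read. Eif4a1, a translation initiation factor, and Mpdu1, a gene of glycan synthesis, had log2 fold changes of -0.24 and -0.14 in the UTX knockout and passed the test in neither comparison with wild type. Senp3, a SUMO protease, rose in both (0.65, SE 0.13, and 0.63, SE 0.13). Sox15, a transcription factor, had 0.46 (SE 0.31) and -0.72 (SE 0.32) and was not called in either. In the direct comparison Sox15 fell (-1.18, SE 0.32), and Eif4a1, Mpdu1 and Senp3 were not called.

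Scarb2, which carries glucocerebrosidase to the lysosome, stood at 56.5, 49.8 and 69.9 CPM in wild type, 75.9, 109 and 106 in UTX knockout libraries, with 72.7, 92.1 and 89.5 in the labelled MLL4 knockdown. All perturbed libraries were above all wild type libraries. Scarb2 rose by 0.72 (SE 0.17, adjusted p = 0.0166) and 0.53 (SE 0.17, adjusted p = 0.0386), and the perturbed groups did not differ past the threshold (-0.19, 95% interval -0.56 to 0.18). The first call was lost without UTX knockout replicate 2 or 3, and the second without wild type replicate 1 or 2 or labelled MLL4 knockdown replicate 2 or 3. Cd63, a tetraspanin of lysosomes and exosomes, stood at 67.5, 150 and 105 CPM in wild type, 64.7, 106 and 96.5 in UTX knockout libraries, with 45.3, 51.0 and 53.4 in the labelled MLL4 knockdown. All labelled MLL4 knockdown libraries were below all others, and wild type replicates 1 and 2 were far apart. Cd63 fell in the labelled MLL4 knockdown (-1.11, SE 0.26, adjusted p = 0.0092) and in the direct comparison (-0.84, SE 0.26, adjusted p = 0.0303).

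Mcoln1, a calcium channel of the lysosomal membrane, stood at 74.3, 59.2 and 64.9 CPM in wild type, 43.8, 65.0 and 57.1 in UTX knockout libraries, with 39.6, 41.8 and 48.4 in the labelled MLL4 knockdown. It fell in the labelled MLL4 knockdown (-0.61, SE 0.16, adjusted p = 0.0147), a call lost without labelled MLL4 knockdown replicate 1 or 2. Lamp2, which also takes part in chaperone-mediated autophagy, stood at 134, 83.9 and 98.1 CPM in wild type, 123, 169 and 144 in UTX knockout libraries, with 94.5, 113 and 97.9 in the labelled MLL4 knockdown. It passed the test in the direct comparison, where it fell (-0.52, SE 0.17, adjusted p = 0.0447), and the UTX knockout value was 0.47 (SE 0.17, adjusted p = 0.0909). Lamp1 stood at 529, 618 and 604 CPM in wild type, 389, 718 and 721 in UTX knockout libraries, with 445, 540 and 569 in the labelled MLL4 knockdown. The UTX knockout libraries lay on both sides of wild type, and the log2 fold changes were 0.06 (95% interval -0.39 to 0.51) and -0.17 (-0.62 to 0.28).

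The transcription factors differed from each other. Tfeb stood at 16.4, 25.1 and 26.2 CPM in wild type, 27.0, 21.1 and 41.4 in UTX knockout libraries, with 42.5, 49.1 and 48.8 in the labelled MLL4 knockdown. All labelled MLL4 knockdown libraries were above all others, and the UTX knockout overlapped with wild type. Tfeb rose 2.07-fold in the labelled MLL4 knockdown (log2 1.05, SE 0.24, adjusted p = 0.0081), between 0.89 and 1.18 over 17 alternatives, with the call lost only in lane 2 alone. Its log2 fold change was 0.40 in the UTX knockout (SE 0.24, adjusted p = 0.277), and in lane 1 the ratio there was below 0 (-0.24). The direct comparison gave 0.65 (SE 0.23, adjusted p = 0.0581; 0.0138 with the replicate block). Tfe3 stood at 128, 128 and 139 CPM in wild type, 130, 143 and 150 in UTX knockout libraries, with 103, 126 and 133 in the labelled MLL4 knockdown, with log2 fold changes of 0.10 and -0.12 (adjusted p = 0.609 and 0.479).

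**Figure D2:**
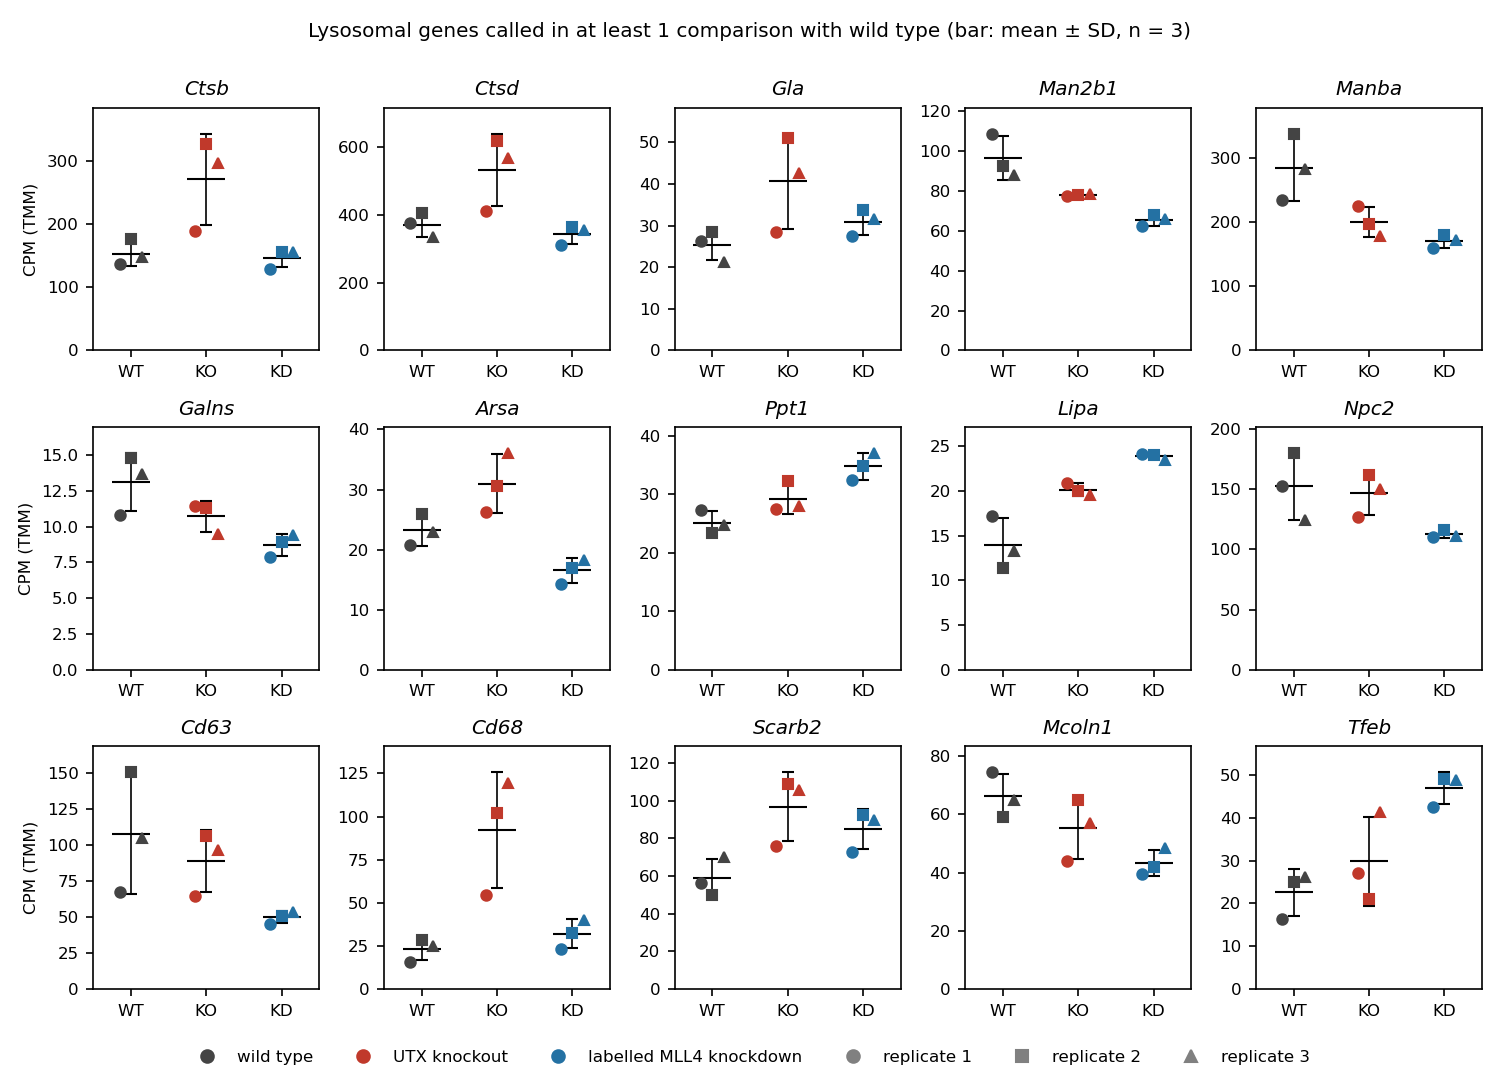
TMM-scaled CPM per library of the 15 lysosomal genes that passed the test in at least 1 comparison with wild type, with axes from 0 and bars for the mean ± SD (n = 3). Cd68, Ctsb, Ctsd and Gla are highest in the UTX knockout, Tfeb and Lipa in the labelled MLL4 knockdown, and replicate 1 (circles) is the lowest UTX knockout library for Cd68, Ctsb, Ctsd, Gla and Scarb2.

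Replicate 1 stood apart for these genes in both perturbed groups. In UTX knockout replicate 1 the 34 genes took 0.376% of all counts, against 0.504% and 0.491% in the other 2 UTX knockout libraries and 0.383% to 0.416% in wild type. The median log2 difference of the 34 genes from the wild type mean was 0.01 in that library and 0.40 and 0.45 in the other two. It was -0.25 in labelled MLL4 knockdown replicate 1 and 0.02 in both other libraries of that group. The median over all genes lay between -0.01 and 0.01 in each of these libraries. Replicate 1 was also the lowest of its group for 29 of 34 genes in the labelled MLL4 knockdown, as for 29 of 34 in the UTX knockout, and for 16 of 34 in wild type. Over all genes tested replicate 1 was the lowest for 36.9%, 38.9% and 35.0% in the UTX knockout, labelled MLL4 knockdown and wild type. In the labelled MLL4 knockdown the shares of counts were 0.319%, the lowest of the 9 libraries, 0.376% and 0.379%. Without UTX knockout replicate 1 the median log2 fold change of the 34 genes against wild type was 0.44. Without labelled MLL4 knockdown replicate 1 that of the labelled MLL4 knockdown was 0.02, with 3 falls in place of 7. What set replicate 1 apart was not tested.

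**Figure D3:**
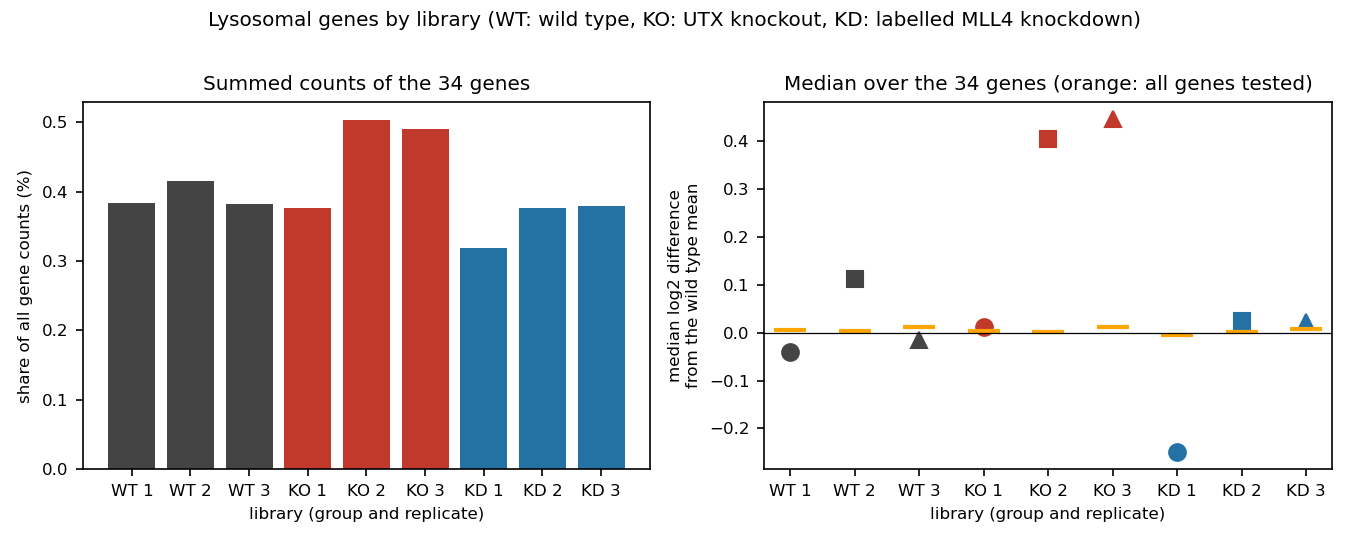
Share of all gene counts taken by the 34 lysosomal genes (left, bars from 0) and median log2 difference of these genes from the wild type mean (right, orange lines for all genes tested), per library. UTX knockout replicates 2 and 3 stand highest, at 0.504% and 0.491%, and replicate 1 is the lowest library of each perturbed group.

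The sequencing lane follows the replicate number, since replicates 1 and 3 were run in lane 2 and replicate 2 in lane 1. In lane 2 alone, with 2 libraries a group, 0 of the 34 genes passed in the UTX knockout. There 2 fell and 0 rose in the labelled MLL4 knockdown (Manba and Man2b1) and in the direct comparison (Arsa and Psap). All called genes had the same direction in lane 2 alone and in the single lane 1 library of each group (7 of 7, 11 of 11 and 12 of 12). They were called in a fit that included these same libraries. The shared direction is therefore largely built in and is no separate support.

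Several of the falls were of genes on chromosome 8. Genes of chromosome 8 were lower as a whole in both perturbed groups, with median log2 fold changes of -0.44 and -0.42 over 780 tested genes, against 0.01 over genes of all other chromosomes in both comparisons, and 0.02 between the perturbed groups. Of these 780 genes, 279 (35.8%) fell in the UTX knockout and 317 (40.6%) in the labelled MLL4 knockdown. Lamp1, Mcoln1, Man2b1, Galns and Asah1 lie on chromosome 8 (RefSeq, GRCm38). When each library's median shift per chromosome was taken out, 0 of these 5 genes fell in the labelled MLL4 knockdown in place of 3. Man2b1 then had a log2 fold change of -0.16 (SE 0.11), Galns -0.18 (SE 0.16) and Mcoln1 -0.21 (SE 0.16). In the UTX knockout their values turned from -0.31, -0.29 and -0.26 to 0.13, 0.15 and 0.18, and Asah1 passed the test with 0.58 (SE 0.15, adjusted p = 0.0289). In the labelled MLL4 knockdown, Asah1 and Lamp1 turned from -0.10 and -0.17 to 0.30 and 0.23, not called in either. Chromosome 4, which carries Ppt1, had medians of -0.15 and -0.22, and Ppt1 rose by 0.68 (SE 0.12) in the labelled MLL4 knockdown with the shift taken out. The call of Lipa (chromosome 19) in the UTX knockout was lost in this setting. Over the 28 lysosomal genes on other chromosomes the median was 0.39 in the UTX knockout and -0.04 in the labelled MLL4 knockdown, with 6 that rose and 1 that fell, and 3 that rose and 4 that fell.

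**Figure D4:**
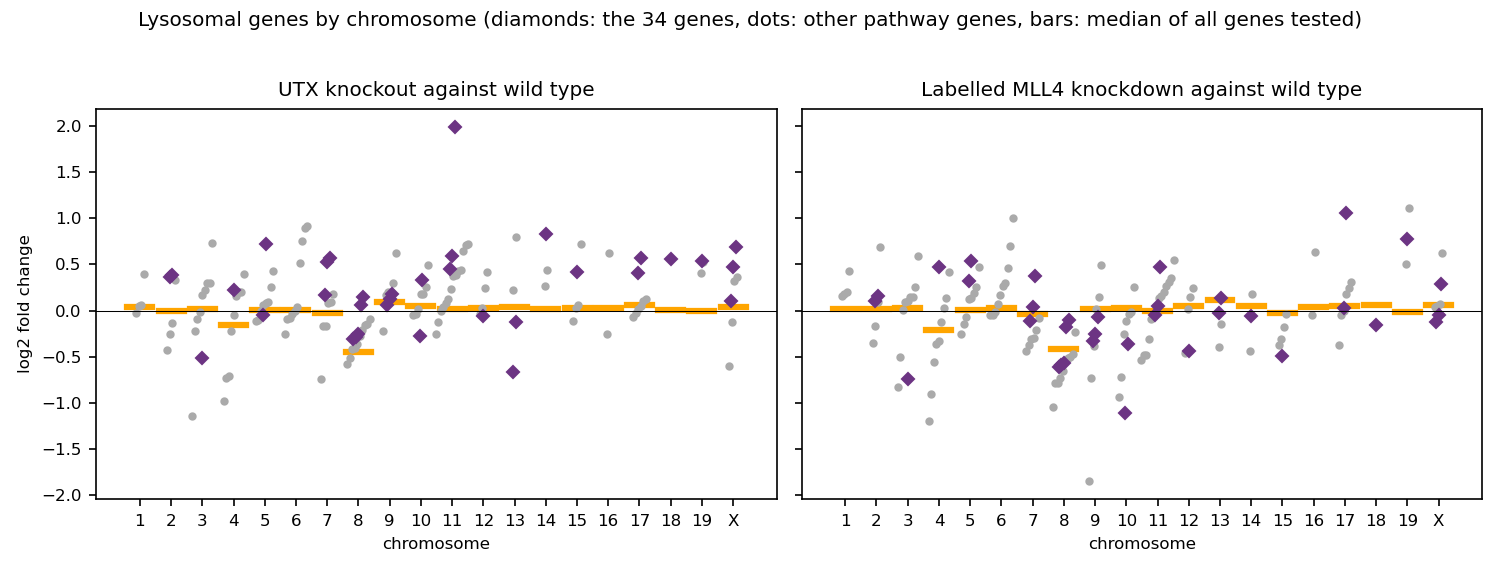
Log2 fold change of the 34 lysosomal genes (diamonds) and of other pathway genes (dots) by chromosome, with the median of all tested genes of each chromosome (bars), in the comparisons with wild type. The bar of chromosome 8 lies at -0.44 and -0.42, and most of the lysosomal genes on it lie below 0, while the other bars, apart from chromosome 4, lie near 0.

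For other genes of the pathway the counts cover whole lists, while the genes named from each list are among those of smallest p. Of all genes tested, 6.55% rose and 8.92% fell in the UTX knockout. In the labelled MLL4 knockdown 10.8% rose and 15.8% fell. The counts of every list below stand beside these shares, and no list was tested as a set. Of 26 tested further soluble hydrolases, 5 rose and 1 fell in the UTX knockout. Scpep1, a carboxypeptidase, rose by 0.65 (SE 0.15) and Gm2a, a lipid-binding activator of ganglioside breakdown, by 0.72 (SE 0.19), while Dnase2a, the acid nuclease on chromosome 8, fell by 0.57 (SE 0.15). In the labelled MLL4 knockdown 2 rose and 6 fell: Acp5, an acid phosphatase, fell by 1.85 (SE 0.31), Ctsf, a cathepsin, rose by 1.11 (SE 0.19), Acp2, another acid phosphatase, rose by 0.69 (SE 0.15) and Dnase2a fell by 0.65 (SE 0.15). The list medians were 0.12 and -0.09, beside -0.01 and -0.02 over all genes.

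Of 20 tested further membrane proteins, 2 rose and 1 fell in UTX knockout cells, and 1 rose and 3 fell in the labelled MLL4 knockdown, with medians of 0.14 and -0.18. Tmem106b, a regulator of lysosome movement and acidity, rose by 0.89 (SE 0.18) and Ostm1, the partner of a chloride transporter, by 0.49 (SE 0.14) in the UTX knockout, where the cation channel gene Tpcn2 fell by 0.74 (SE 0.18). Tmem192 in the labelled MLL4 knockdown fell by 1.04 (SE 0.16), the transporter genes Mfsd12 and Slc29a3 fell by 0.93 (SE 0.22) and 0.71 (SE 0.20), and Tpcn1 rose by 0.47 (SE 0.16). Of 18 subunits and partners of the V-ATPase, the proton pump that acidifies the lysosome, 2 rose and 1 fell in UTX knockout cells, and 1 rose and 2 fell in the labelled MLL4 knockdown, with medians of 0.04 and -0.03. Atp6v1a rose by 0.62 (SE 0.14) and Tcirg1 by 0.40 (SE 0.12) in the UTX knockout, and Tcirg1 rose by 0.51 (SE 0.12) in the labelled MLL4 knockdown. The falls were of Atp6v1b2 in both (-0.51, SE 0.11, in each) and Atp6v0d1 in the second (-0.78, SE 0.17), which lie on chromosome 8. Over all these pathway lists, 10 tested genes lay on chromosome 8. Of them 2 fell in the UTX knockout and 9 in the labelled MLL4 knockdown, and 0 and 1 (Tmem192, -0.63, SE 0.15) did so with the chromosome shift taken out.

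Genes of mannose 6-phosphate sorting and of hydrolase maturation were mixed: 1 of 12 rose in the UTX knockout, and 2 rose and 3 fell in the labelled MLL4 knockdown, with medians of 0.02 and -0.01. M6pr, a receptor that carries tagged hydrolases, rose by 0.51 (SE 0.13) in the UTX knockout. In the labelled MLL4 knockdown Nagpa, which uncovers the tag, and Sumf1, which activates sulfatases, rose by 0.63 (SE 0.13) and 0.46 (SE 0.12), and Cln6 and Cln8, which help hydrolases leave the endoplasmic reticulum, fell by 0.73 (SE 0.20) and 0.72 (SE 0.12), Cln8 from chromosome 8. Of 17 tested genes for MiT/TFE factors and nutrient sensing, 1 rose and 2 fell in UTX knockout cells, and 3 rose and 4 fell in the labelled MLL4 knockdown, with medians of -0.01 and 0.13. Mitf, the relative of Tfeb, rose by 0.75 (SE 0.20) and 0.70 (SE 0.20). Rragd, a GTPase that recruits mTORC1 to lysosomes and a known target of TFEB, fell by 0.98 (SE 0.18) and 1.19 (SE 0.18), and with the shift of chromosome 4 taken out by 0.81 (SE 0.18) and 0.98 (SE 0.18). Its relatives were Rraga, which fell by 0.72 (SE 0.11) in the UTX knockout, and Rragc, which fell by 0.91 (SE 0.14) in the labelled MLL4 knockdown, both also on chromosome 4. Mtor, the kinase of mTORC1 and on the same chromosome, rose by 0.41 (SE 0.13) in the labelled MLL4 knockdown. Of 20 autophagy genes, 2 rose and 1 fell in UTX knockout cells, and 3 rose and 3 fell in the labelled MLL4 knockdown, with medians of 0.05 and 0.04. Gabarapl1, which marks autophagosomes, rose by 0.91 (SE 0.12) and 1.00 (SE 0.12), and Wipi1, an early autophagy factor, by 0.70 (SE 0.16) and 0.55 (SE 0.16). Stx17, a fusion protein of autophagosomes, fell by 0.71 (SE 0.17) in the UTX knockout. Becn1, a lipid kinase subunit, and Gabarapl2 fell by 0.48 (SE 0.12) and 0.79 (SE 0.21) in the labelled MLL4 knockdown. The calls of Stx17 (chromosome 4) and Gabarapl2 (chromosome 8) were lost with the chromosome shift taken out (-0.54, SE 0.18, and -0.37, SE 0.20). Both comparisons share the wild type libraries, so their values are given side by side only. All changes in these lists passed edgeR's test at an adjusted p under 0.05.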

How the data were processed

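Total RNA was made into libraries with a TruSeq kit, per the labels' protocols. The authors deposited raw read counts per gene symbol, 1 column per library. The submitters' processing notes name STAR 2.4, HTSeq 0.6.1, mm9 and hg19 without their roles. The annotation and strand setting were not given in the sources used here. Of the 34 genes, 11 share exon bases with another annotated gene (GRCm38), 9 of them on the opposite strand, so their reads could be split or merged.

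Counts were fitted with edgeR 4.0.16 in R 4.3.3 (TMM, filterByExpr by group, quasi-likelihood test, two-sided, group only, all 9 libraries), adjusted by Benjamini-Hochberg over 14772 genes per comparison at 0.05. The code was tested on simulated data. No exact permutation test was run, since 3 libraries against 3 allow no p below 0.1. No label states separate cultures for the libraries of a group, and p-values therefore measure only the spread between these samples, possibly technical. Libraries of a group differed by more than sampling noise (chi-square over its degrees of freedom 6.89 to 61.6).

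The replicate number was used as a block, because same-numbered libraries shared deviations from the mean of their group, least clearly for replicate 2. Across genes, r for replicates 1, 2 and 3 was 0.415, 0.168 and 0.381 between UTX knockout and wild type. It was 0.416, 0.182 and 0.238 between labelled MLL4 knockdown and wild type, and 0.467, 0.181 and 0.308 between the perturbed groups. Between libraries of different number r ran from -0.412 to 0.226. The highest, of labelled MLL4 knockdown replicate 2 with UTX knockout replicate 3, was above the 0.181 of the same-numbered libraries. UTX knockout replicate 3 had 0.158 with wild type replicate 2, close to 0.168. Values with the replicate block are printed where they change a call.

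CPM values were computed from the deposited counts, and levels per kilobase used GRCm38 exon lengths. Motifs were searched in RefSeq promoter windows. The 34 genes, the lists and the rules were chosen with earlier results of these data known. Values are given for genes past the threshold in any comparison, for Tfeb, Tfe3, Lamp1 and genes whose groups did not overlap with wild type, for those of the 4 genes of smallest p per pathway list and comparison with wild type that passed the test, and for the targeted genes and the neighbours of Cd68.

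Alternatives were DESeq2 size factors or the DESeq2 1.42.0 Wald test, no or a stricter filter, the replicate block, only the groups compared, lane 2 alone, offsets for transcript length or chromosome (each also with the block), and leaving out each library.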

Additional observations from a re-analysis of the deposited data

How the results depend on the processing

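Of the values of called genes under the alternatives, 89 of 119, 147 of 187 and 158 of 204 kept their call in the UTX knockout, the labelled MLL4 knockdown and the direct comparison, and 0 changed direction. All alternatives were fitted to the same 9 libraries or a part of them. An unchanged direction is therefore largely built in and is no separate support. Of all 1728 values, 52 changed sign, for genes not called (absolute log2 fold change at most 0.39). In the UTX knockout 6 rose and 1 fell: 12 rose with no filter on low counts, 10 rose and 2 fell with the DESeq2 Wald test, 11 rose with the replicate block, 3 rose and 0 fell with only the 2 groups compared, 0 and 0 in lane 2 alone, 11 rose and 2 fell with transcript length offsets, 15 rose and 2 fell with these and the replicate block, and 13 rose with chromosome offsets and the replicate block. In the labelled MLL4 knockdown 0 rose and 2 fell in lane 2 alone, and 8 rose with length offsets and the replicate block. In the direct comparison 2 rose with the DESeq2 Wald test, the replicate block, only the 2 groups compared, length offsets with the block, and chromosome offsets with or without the block, while 0 rose and 2 fell in lane 2 alone. Over all genes, 2285 changed in the UTX knockout, 3446 with the replicate block, 4400 with length offsets and the block, 1240 with only the 2 groups compared and 74 in lane 2 alone. In the labelled MLL4 knockdown 3930 changed, 5947 with length offsets and the block and 1341 in lane 2 alone, and in the direct comparison 4275, 6555 and 1535.

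Leaving out 1 library gave 1 to 13 rises and 0 to 1 falls in the UTX knockout, 2 to 4 rises and 3 to 6 falls in the labelled MLL4 knockdown, and 0 to 1 rises and 5 to 19 falls in the direct comparison. The counts over all genes were 833 to 2854, 2273 to 4108 and 2556 to 4062. The calls that the replicate block added are given with the results, and it changed no other call of the 34 genes. The cause of each change of count was not tested. With 3 libraries a group, depth limits Arsb and Ctsh, the genes of fewest counts.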
